A study of Mus musculus with 3 samples.

Results

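The genes described here encode the proteins of the mitochondrial ribosome. They were taken as every array probe whose gene symbol begins with Mrpl (large subunit) or Mrps (small subunit) followed by a number and at most 1 letter. The rule gave 105 of 25697 probes, for 72 genes, 43 named as large subunit and 29 as small subunit. Of these, 67 genes (40 large and 27 small) could be tested among 10222 tested genes, and all 67 were detected on all 6 arrays. The other 5, Mrpl19, Mrpl21, Mrpl32, Mrps14 and Mrps36, had 1 probe each, and it was not detected on any array. Mrps36 is named as a ribosomal protein, but its product is now known as a component of the alpha-ketoglutarate dehydrogenase complex. Likewise Mrps18a and Mrps30 carry small subunit names, although their human proteins sit in the large subunit. Genes were grouped here by symbol.

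Mitochondrial ribosomes translate the few messages encoded by mitochondrial DNA, all of which specify subunits of the oxidative phosphorylation complexes. Their RNAs are made in the mitochondrion, whereas all of their proteins are encoded in the nucleus, made by cytosolic ribosomes and imported. Some pluripotent stem cells are known for a largely glycolytic metabolism, and mitochondrial content and use change as pluripotent cells differentiate. The metabolism of the ES cells used here was not measured.

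Total RNA was measured on 1-colour Illumina bead arrays in embryonic stem (ES) cells from 129 mice that carry a Sox17-GFP reporter, in which green fluorescence marks cells with an active endoderm gene. The first group was Sox17-GFP(+) cells after 7 days with recombinant human Activin A at 50 ng/ml, and the second was Sox17-GFP(+) cells after 7 days with recombinant mouse Nodal at 1000 ng/ml. The protocol gives a range of 6 to 8 days in serum-containing medium. The third was undifferentiated cells of the same reporter line, kept in serum and LIF on gelatin with mouse embryonic fibroblasts as feeders. The series' design text calls that sample SOX17-GFP (+), and the sample title was followed. Each group had 2 arrays, which belong to 1 deposited sample. The series' design text gives 2 replicates per sample, whereas the sample descriptions give 2 for Activin, 3 for Nodal and 4 for undifferentiated cells. The labels do not say whether the arrays came from separate cultures, so p-values measure the spread between arrays, which may be technical. No untreated cells of the same day were included, the differentiated cells alone were selected on the reporter, and Activin A and Nodal differed in protein, species of origin and dose together. Both comparisons with undifferentiated cells share the same 2 undifferentiated arrays.

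Sox17 had log2 levels of 11.83 and 11.89 on the Activin arrays and 11.90 and 11.79 on the Nodal arrays, against 6.58 and 6.45 on the undifferentiated arrays. Between 49.3% and 50.6% of probes were detected per array. Of the tested endoderm markers, 12 of 12 were higher after Activin and 12 of 12 after Nodal, and 10 of 10 pluripotency markers were lower in each. The endoderm markers include Sox17, on whose reporter the treated cells were selected. Among all genes tested, 36.5% were higher and 37.2% lower after Activin, and 36.8% and 37.4% after Nodal. Markers of cells other than ES cells also moved with the groups. For 12 fibroblast feeder markers the summed signal was 1385 to 1470 with Activin and 1595 to 1637 with Nodal, against 4912 to 5184 in undifferentiated cells. Of 9 tested, 8 were lower and 1 higher in each comparison, the latter by 0.95 after Activin and 1.27 after Nodal on the log2 scale. Col1a1, Col3a1, Lox and Mgp were undetected on both Activin arrays and on both Nodal arrays. Col1a2, Lum and Postn were undetected in all groups, undifferentiated cells included. For 9 macrophage markers the summed signal was 460 to 475 with Activin and 461 to 467 with Nodal, against 12076 to 13248 in undifferentiated cells, and 7 of 7 tested were lower in each. Lyz1, Lyz2, Adgre1 and Tyrobp were undetected on the Activin and the Nodal arrays, and Csf1r and Fcer1g were undetected in all groups. Cell cycle genes were lower in 15 of 15 cases in each comparison, with median log2 changes of -0.94 (Activin) and -0.83 (Nodal). The part of these cells and of the cell cycle in the results below was not tested. In bulk RNA, fewer cells of a type and less RNA per cell cannot be told apart.

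Most genes for mitochondrial ribosomal proteins were lower in Activin-treated than in undifferentiated cells. Of 67 tested, 42 were lower and 4 higher at an adjusted p under 0.05 (limma, Benjamini-Hochberg over all 10222 genes), and 21 did not pass. Among all genes tested, 37.2% were lower and 36.5% higher. The median log2 change of the 67 genes was -0.40, against -0.02 for all genes. Changes were moderate in size: 5 members were at least 2-fold lower, where 12.6% of all genes were, and none was 2-fold higher. The range ran between -1.503 (Mrps5) and 0.76 (Mrpl53).

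Nodal gave a like picture against the same undifferentiated arrays. Of 67 genes, 44 were lower, 5 higher and 18 did not pass, where 37.4% of all genes were lower and 36.8% higher. The median log2 change was -0.39, against -0.01 for all genes. At least 2-fold lower were 6 members, where 12.9% of all genes were. The normalization sets the overall level of every array equal, so these changes are relative to the other genes of the array.

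Both subunits took part. After Activin, 24 of 40 large subunit genes were lower and 3 higher (median log2 change -0.40), and 18 of 27 small subunit genes were lower and 1 higher (median -0.41). After Nodal, 23 of 40 large subunit genes were lower and 4 higher (median -0.34), and 21 of 27 small subunit genes were lower and 1 higher (median -0.48). A further split, chosen after the results were seen, separated proteins numbered after a bacterial ribosomal protein from those with higher numbers, most of which belong to mitochondrial ribosomes alone. After Activin, 25 of 40 genes with a bacterial number were lower (median -0.40) and 17 of 27 with a higher number (median -0.40). After Nodal the counts were 25 of 40 (median -0.44) and 19 of 27 (median -0.37).

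**Figure D1:**
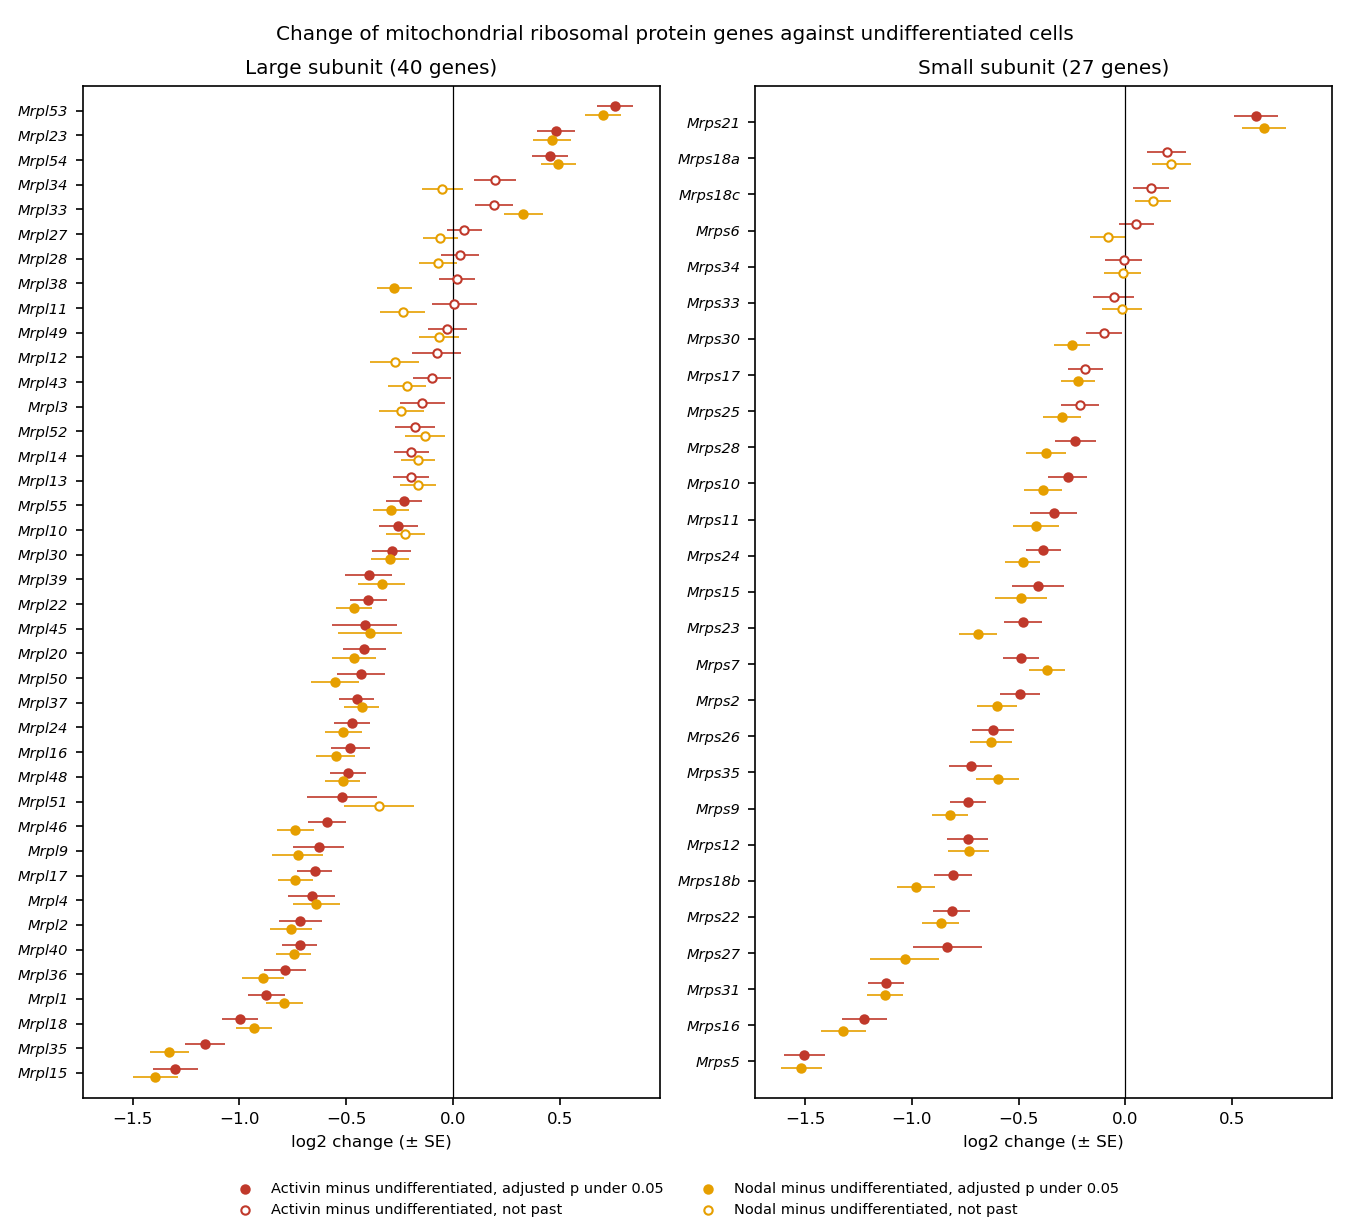
Log2 change against undifferentiated cells, with its standard error, of the 67 tested genes (rows), for Activin (red, upper point of each row) and Nodal (yellow, lower point); filled points passed an adjusted p of 0.05 and open points did not. Most points lie left of 0 in both subunits, and Mrpl53, Mrps21, Mrpl23 and Mrpl54 stand to the right.

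Mrps5, a small subunit protein related to one that lies near the messenger RNA entry of the bacterial ribosome, had the lowest change. Its log2 level was 8.95 and 9.06 with Activin and 9.07 and 8.92 with Nodal, against 10.55 and 10.47 in undifferentiated cells. This is 2.83-fold lower after Activin (log2 change -1.503, SE 0.09, limma adjusted p = 4.29e-07) and 2.86-fold lower after Nodal (-1.52, SE 0.09, adjusted p = 3.94e-07). All 4 treated arrays lay below both undifferentiated ones.

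Mrpl15, a large subunit protein with a bacterial counterpart, had log2 levels of 6.18 and 6.43 with Activin and 6.28 and 6.15 with Nodal, against 7.60 and 7.62 in undifferentiated cells. Its log2 change was -1.30 (SE 0.10) after Activin and -1.39 (SE 0.10) after Nodal. The groups did not overlap with undifferentiated cells, although the 2 Activin arrays differed more than the others. Mrps16, a small subunit protein whose loss in people causes a mitochondrial disease, read 9.44 and 9.71 with Activin and 9.52 and 9.44 with Nodal, against 10.78 and 10.82 in undifferentiated cells. It was 2.33-fold lower after Activin (limma adjusted p = 4.19e-06) and 2.498-fold lower after Nodal (adjusted p = 2.37e-06).

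Mrpl35, another large subunit protein with a bacterial counterpart, read 6.93 and 6.84 with Activin and 6.65 and 6.79 with Nodal, against 8.09 and 8.00 in undifferentiated cells (log2 change -1.16 after Activin and -1.33 after Nodal). Mrps31, a small subunit protein found in mitochondria and not in bacteria, read 10.57 and 10.66 with Activin and 10.60 and 10.62 with Nodal, against 11.76 and 11.72 in undifferentiated cells (-1.12 and -1.13). For both genes every treated array lay more than 1 log2 unit below the undifferentiated ones. Mrps27, which belongs to the pentatricopeptide repeat family of RNA-binding proteins, was the noisiest of this set: it read 6.22 and 6.75 with Activin and 6.16 and 6.4001 with Nodal, against 7.24 and 7.39 in undifferentiated cells. Its change was -0.83 (SE 0.16, limma adjusted p = 0.00114) after Activin and -1.03 (SE 0.16, adjusted p = 0.000271) after Nodal, so only the Nodal value was past 2-fold.

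Among the next genes, Mrpl18, of a family that binds a ribosomal RNA in bacteria, changed by -0.998 after Activin and -0.934 after Nodal. Mrpl1, of the family that forms a mobile stalk of the large subunit, changed by -0.87 and -0.79. Mrps22, a small subunit protein of mitochondria, changed by -0.81 and -0.87, and Mrpl36, a small protein with a bacterial counterpart, by -0.79 and -0.89. Mrps18b has 2 paralogs among the members, and the 3 did not behave alike. Mrps18b changed by -0.81 after Activin and -0.98 after Nodal, whereas Mrps18a had 0.19 and 0.21 and Mrps18c had 0.12 and 0.13, none of these 4 values past the threshold. The difference between the paralogs was not tested.

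Few members were higher. Mrpl53, a large subunit protein of mitochondria, read 11.76 and 11.86 with Activin and 11.73 and 11.77 with Nodal, against 11.07 and 11.04 in undifferentiated cells. It was 1.69-fold higher after Activin (limma adjusted p = 2.67e-05) and 1.63-fold higher after Nodal (adjusted p = 4.6e-05). Mrps21, a small subunit protein with a bacterial counterpart, read 10.11 and 10.35 with Activin and 10.20 and 10.33 with Nodal, against 9.63 and 9.60 in undifferentiated cells, a log2 change of 0.61 and 0.65. Neither gene overlapped between treated and undifferentiated arrays.

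Mrpl23, a large subunit protein, rose by 0.48 after Activin and 0.46 after Nodal on the log2 scale. Mrpl54, a large subunit protein of mitochondria, rose by 0.45 and 0.49. Mrpl33, a small zinc-binding protein in bacteria, had 0.19 (SE 0.09, limma adjusted p = 0.081) after Activin and rose by 0.33 (SE 0.09, adjusted p = 0.00832) after Nodal. Its other tested probe had only 0.09 after Nodal and did not pass (limma adjusted p = 0.378). The Nodal call of Mrpl33 was lost with median scaling (0.26, adjusted p = 0.0539), without Nodal array 1 and without undifferentiated array 1. The brightest probes among the members were those of Mrpl17, Mrps24 and Mrpl28 and the dimmest those of Mrpl45, Mrpl51 and Mrps27, which orders probes and not RNA amounts.

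**Figure D2:**
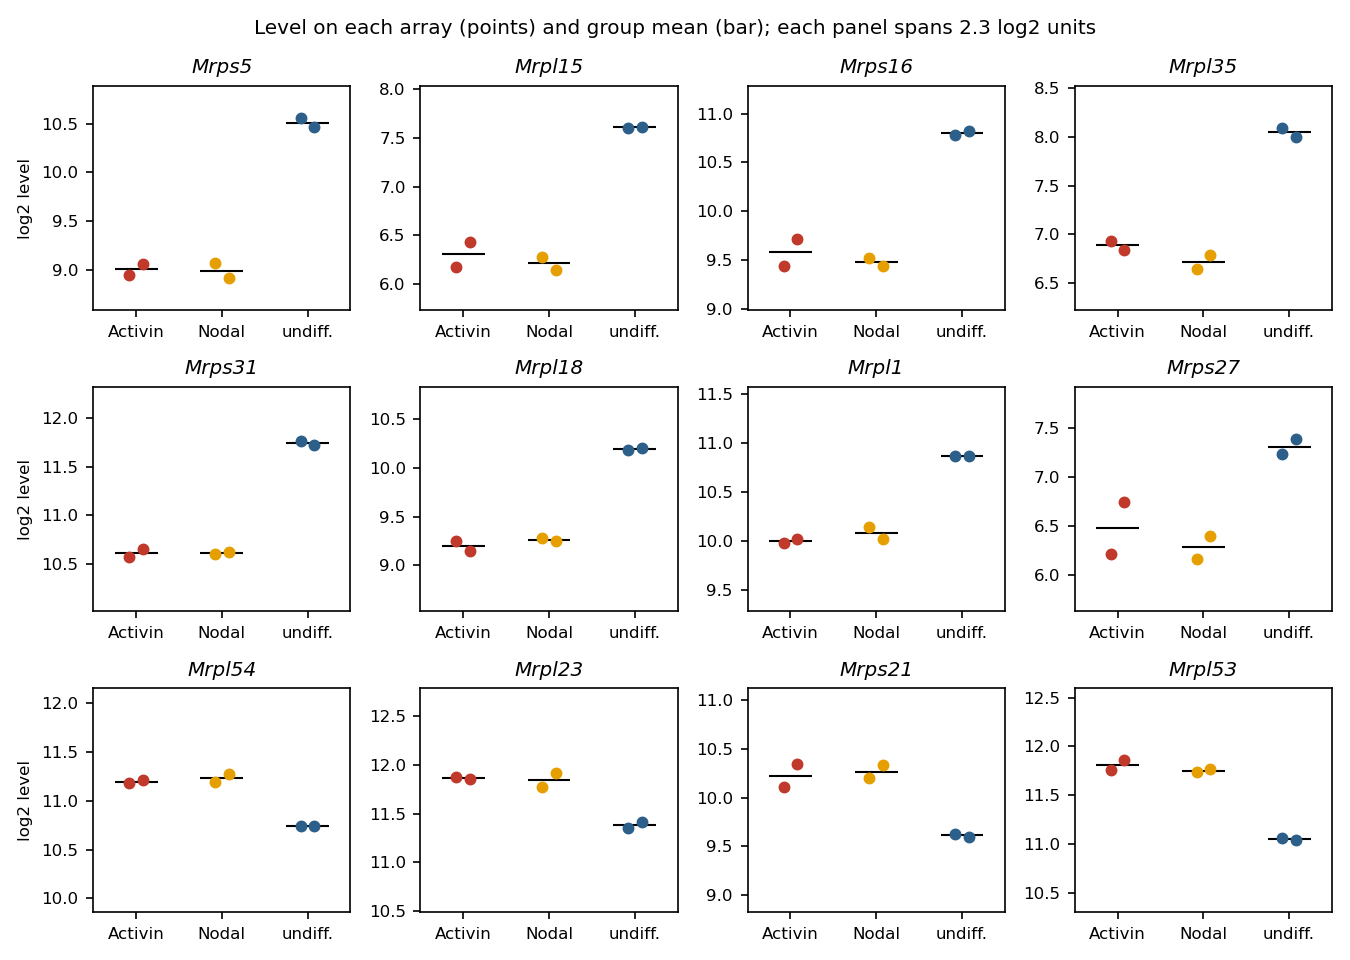
Normalized log2 level on each array (points) and group mean (bars) for the 8 genes with the lowest Activin change and the 4 higher genes, with Activin, Nodal and undifferentiated cells (undiff.) from left to right. Every treated array of the first 8 genes lies below both undifferentiated arrays, as with Mrps5 at 8.92 to 9.07 against 10.47 and 10.55, and every treated array of the last 4 lies above them.

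Nodal and Activin were then compared directly. None of the 67 genes passed (limma, adjusted p), where 1.48% of all genes were higher and 1.34% lower in Nodal. At an unadjusted p under 0.05 there were 4 of 67 (5.97%), against 1589 of 10222 genes (15.5%). These 4 were Mrpl38, Mrpl34, Mrpl11 and Mrps23, named after their values were seen. The largest difference was that of Mrpl38, with 10.88 and 10.97 with Nodal against 11.21 and 11.23 with Activin (log2 difference -0.29, 95% interval -0.48 to -0.10, adjusted p = 0.117). The 95% intervals of all 67 differences lay between -0.57 and 0.55, so within 1.5-fold. Like the p-values, these intervals measure the spread between arrays, which may be technical, so they do not bound a difference between cultures. Values were below 0 for 47 of 67 genes (70.1%), against 49.4% of all genes, with a median of -0.05. Genes past the threshold in 1 comparison with undifferentiated cells only are not shown to differ between the 2 proteins: Mrpl51, for example, had -0.52 after Activin and -0.35 after Nodal, and a direct difference of 0.17 (limma adjusted p = 0.699). In the same comparison 7 of 8 tested visceral endoderm markers were higher in Nodal, and their part in these values was not tested.

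Of the tested members, 20 had at least 2 tested probes, 47 probes in all. The probes of a gene had the same sign in 18 genes after Activin and 17 after Nodal, and no gene had opposite calls. All probes of a gene had the same call in only 15 genes after Activin and 11 after Nodal. All probes were called lower in 11 genes after Activin and 10 after Nodal. Among all tested probes of the array, 37.3% were called lower after Activin and 37.9% after Nodal. The agreement of probes was not counted over all genes, so these counts are a description only. Mrps5, Mrps31, Mrpl18, Mrpl1 and Mrps18b each fell on all of their tested probes, and Mrps31 and Mrpl1 had 1 further probe each that was not tested. Signs differed for Mrps10 and Mrps25 in both comparisons and for Mrps33 after Nodal. The 3 probes of Mrps25 changed by -0.21, 0.09 and 0.30 after Activin, with the brightest lowest. The probe at 0.30 was called higher (limma adjusted p = 0.0112), and the other 2 did not pass. For Mrpl49, the brightest probe had -0.03 after Activin and did not pass, whereas the other 3 were called lower at -0.68, -0.67 and -0.29. After Activin, Mrpl49 therefore counts as not past through its brightest probe alone.

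**Figure D3:**
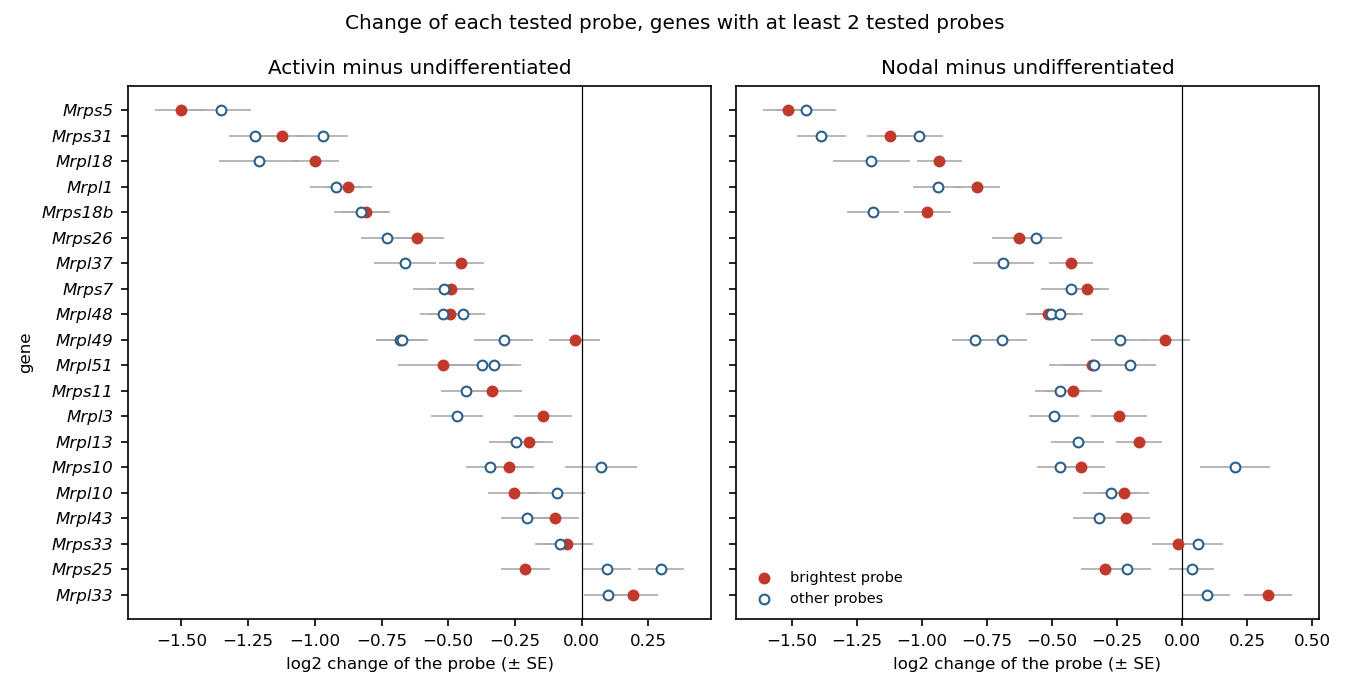
Log2 change with standard error of each tested probe of the 20 genes with at least 2 tested probes, after Activin (left) and Nodal (right); the red point is the brightest probe, which stands for the gene, and open points are the others. The probes of Mrps5, Mrps31, Mrpl18 and Mrpl1 lie together left of 0, while those of Mrpl49 spread between -0.68 and -0.03 after Activin and those of Mrps25 lie on both sides of 0.

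Other genes of mitochondrial gene expression were described from listed names, and their counts stand beside 37.2% lower and 36.5% higher among all genes after Activin and 37.4% and 36.8% after Nodal. Of 7 ribosomal proteins with other symbols, 2 were lower and 1 higher after Activin and likewise after Nodal. Ptcd3, a small subunit protein with RNA-binding repeats, changed by -0.93 after Activin and -1.01 after Nodal, Dap3, a small subunit protein that binds GTP, by -0.67 in each, and Chchd1 by 0.29 and 0.31. Of 14 translation factors, 10 were lower and 1 higher in each comparison (median -0.63 after Activin and -0.56 after Nodal). Mtrf1, a release factor, changed by -1.48 and -1.49, Gfm2, an elongation factor of ribosome recycling, by -1.41 and -1.22, and Mrrf, the recycling factor, by -1.002 and -1.001. Of 19 genes for mitochondrial aminoacyl-tRNA synthetases and related enzymes, which charge transfer RNAs, 12 were lower and 2 higher after Activin and 13 and 1 after Nodal. Aars2 had -1.197 and -1.05, and Wars2 stood opposite with 1.27 and 1.40.

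Assembly factors were more mixed: 6 of 18 were lower and 3 higher after Activin, and 9 lower and 1 higher after Nodal. The Activin share of 33.3% lower was near that of all genes. Rbfa, which helps mature the small subunit, changed by -1.45 and -1.55, and Tfb1m, which methylates the small subunit RNA, by -1.38 and -1.41. Of 11 genes for mitochondrial DNA upkeep and transcription, 7 were lower and 1 higher after Activin and 6 and 1 after Nodal. Tfam, which packages mitochondrial DNA, changed by -0.84 and -0.88, Polrmt, the mitochondrial RNA polymerase, by -0.84 and -0.82, and Polg, the DNA polymerase, by 0.66 and 1.04. Of 12 chaperones and proteases, 9 were lower after Activin and 10 after Nodal, and none was higher (Hspa9, a matrix chaperone, -0.97 and -1.05). Import genes went both ways, with 8 of 17 lower (47.1%) and 4 higher after Activin and 7 (41.2%) and 3 after Nodal. Among 8 tested regulators of nuclear genes for mitochondrial proteins, 5 were lower and 1 higher after Activin and 4 and 1 after Nodal. The highest change in this list was 0.99 after Activin and 0.95 after Nodal, and 2 of the 8 lay above 0 in each comparison. Gabpa, the DNA-binding subunit of an ETS family factor, read 6.54 and 6.43 with Activin and 6.28 and 6.57 with Nodal, against 8.13 and 8.02 in undifferentiated cells (log2 change -1.59 and -1.65), and Nrf1 had -0.49 and -0.45.

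Medians of the lists above after Activin and Nodal were -0.66 and -0.63 for chaperones and proteases and -0.45 and -0.51 for synthetases. They were -0.37 and -0.28 for DNA upkeep and transcription, -0.26 and -0.22 for regulators and -0.21 and -0.27 for assembly factors. Import genes had -0.16 and -0.21, and ribosomal proteins with other symbols -0.07 and -0.17. Other large complexes had medians nearer 0 than the members. Of 60 cytosolic ribosomal protein genes, 8 were lower and 3 higher after Activin and 10 and 2 after Nodal, with medians of -0.00 and 0.01. The lowest of these, Rpl39l, Rpl3l and Rps4l, are paralogs of the standard proteins, at -3.35, -3.15 and -2.11 after Activin. Of 81 oxidative phosphorylation genes, 24 were lower and 16 higher after Activin and 27 and 17 after Nodal (medians -0.02 and -0.04). Of 34 proteasome genes, 16 were lower (47.1%) and 2 higher after Activin and 16 (47.1%) and 1 after Nodal (medians -0.21 and -0.20). Among all genes tested, 37.2% were lower after Activin and 37.4% after Nodal. The difference between these groups and the mitochondrial ribosomal proteins was not tested.

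**Figure D4:**
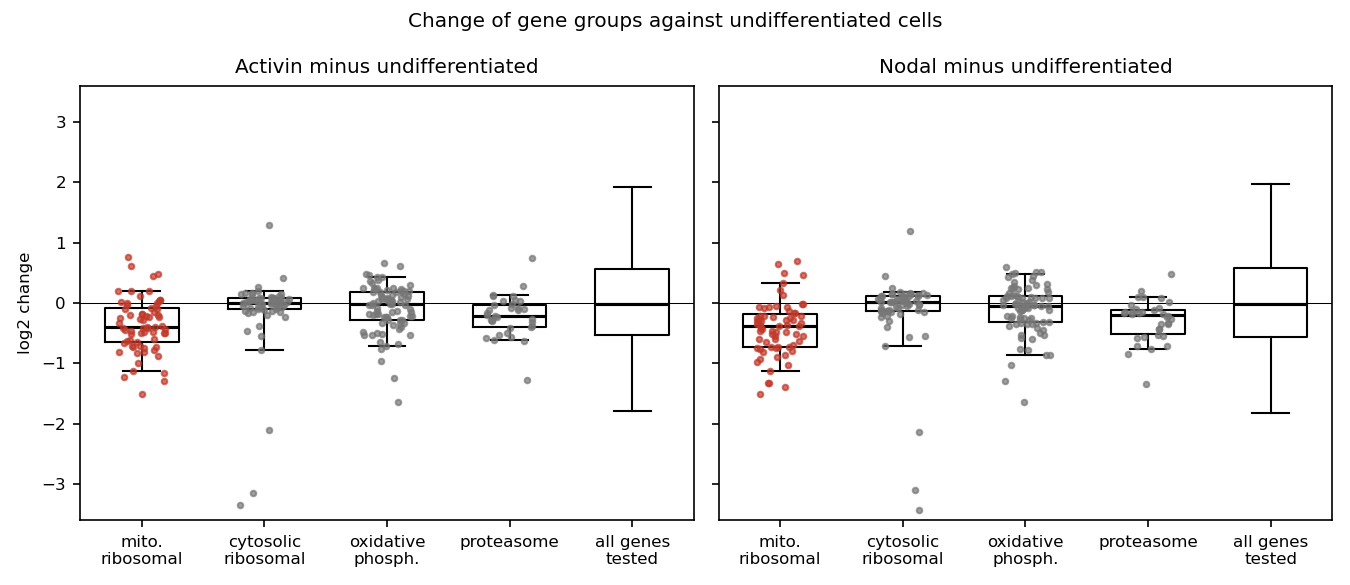
Log2 change against undifferentiated cells after Activin (left) and Nodal (right) of the tested genes of 4 groups and of all 10222 genes; boxes give the quartiles and median, whiskers the 5th and 95th percentiles, and points single genes (not drawn for all genes). The median of the mitochondrial ribosomal proteins lies at -0.40 and -0.39, that of the proteasome at -0.21 and -0.20, and those of the cytosolic ribosomal proteins and oxidative phosphorylation near 0.

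RefSeq promoter windows (GRCm38.p6, 250 bases before to 50 after a gene's start) were found for 59 of the 67 tested members. The 150 bases before the most upstream start are shown for the 3 lowest and the 2 highest members with an entry, because these genes moved furthest, followed by the 41 bases between the starts of Mrpl46 and Mrps11, which are transcribed away from each other. Capitals mark any match, on either strand, of 7 strings described after the sequences.
Mrps5, chr2:127587276-127587425, plus strand: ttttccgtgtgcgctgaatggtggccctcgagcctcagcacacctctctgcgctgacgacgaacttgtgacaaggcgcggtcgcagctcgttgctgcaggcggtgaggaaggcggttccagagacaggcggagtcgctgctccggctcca
Mrps16, chr14:20393635-20393784, minus strand: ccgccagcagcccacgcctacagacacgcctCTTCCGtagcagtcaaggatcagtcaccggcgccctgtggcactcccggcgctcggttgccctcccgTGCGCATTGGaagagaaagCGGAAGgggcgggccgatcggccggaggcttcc
Mrpl35, chr6:71823785-71823934, minus strand: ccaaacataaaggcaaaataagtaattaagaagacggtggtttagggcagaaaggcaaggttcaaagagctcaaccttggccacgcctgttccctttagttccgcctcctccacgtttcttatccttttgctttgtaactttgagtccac
Mrps21, chr3:95871515-95871664, minus strand: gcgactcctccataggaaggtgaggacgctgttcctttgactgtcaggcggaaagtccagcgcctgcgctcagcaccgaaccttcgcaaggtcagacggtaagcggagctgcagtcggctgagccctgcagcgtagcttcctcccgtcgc
Mrpl53, chr6:83108958-83109107, plus strand: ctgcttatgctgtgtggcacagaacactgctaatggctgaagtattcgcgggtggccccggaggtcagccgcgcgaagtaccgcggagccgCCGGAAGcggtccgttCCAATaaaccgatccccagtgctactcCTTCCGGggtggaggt
Mrpl46 and Mrps11, chr7:78783090-78783130, minus strand: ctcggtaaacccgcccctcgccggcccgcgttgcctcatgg

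The 7 strings were picked after the expression results were known, and all 7 are given. They were searched on both strands of the whole 300-base window, and the share of members is set beside that of the 7882 tested genes with an entry and that of all 32851 promoter entries. Members and tested genes counted if any of their entries held the string, whereas all entries were counted singly. The share of all entries is therefore not a like measure. CCGGAAG, a core of ETS family sites, was in 23 of 59 members (39.0%), against 19.7% of tested genes and 8.86% of all entries. The shorter CGGAAG, which every CCGGAAG contains, was in 35 (59.3%), against 34.3% and 16.9%. TGCGCA, a core of NRF1 sites, was in 17 (28.8%), against 15.8% and 7.76%, and the full palindrome GCGCATGCGC in 2 (3.39%), against 2.09% and 0.971%. AAGATGGC, a YY1 site, was in 10 (16.9%), against 5.27% and 2.75%. CACGTG, an E-box, was in 5 (8.47%), against 11.8% and 7.15%, and CCAAT in 23 (39.0%), against 43.5% and 37.4%. No test was made of these shares, and those of the full palindrome, the E-box and CCAAT differ from the tested genes by few promoters.

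Within the members, the shares did not follow the calls in one way. CCGGAAG was in 12 of 38 members lower after Activin and in 11 of the 21 others, and in 11 of 39 lower after Nodal and 12 of the 20 others. AAGATGGC was in 8 of 38 lower after Activin and 2 of the 21 others, and TGCGCA in 12 and 5. Of the printed stretches, that of Mrps16 holds the NRF1 core, the short ETS core and the CCAAT string. That of Mrpl53 holds CCGGAAG on each strand and the CCAAT string, and those of Mrps5, Mrpl35 and Mrps21 hold none of the 7.

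A look at neighbours, also made after the results were known, found 15 pairs of a tested member and a tested gene that start within 1000 bases and run in opposite directions. In 11 pairs the member was lower after Activin, and the neighbour was lower in 6, higher in 1 and not past in 4. After Nodal the counts were 10, 5, 1 and 4. Over all genes tested, 37.2% were lower after Activin and 37.4% after Nodal, so with this few pairs the neighbours' counts are given as a description only. Mrpl46 and Mrps11 are each other's neighbour: Mrpl46 changed by -0.59 after Activin and -0.74 after Nodal, and Mrps11 by -0.34 and -0.42. Mrps12 changed by -0.74 and -0.73, and its neighbour Sars2, a mitochondrial synthetase, by -0.45 and -0.72. In contrast, Zfp661 beside Mrps5 had 0.04 and 0.11, Tcp1 beside Mrpl18 had -0.04 and -0.01, none of them past the threshold, and Klc4 beside Mrpl2 rose by 0.32 and 0.39 while Mrpl2 changed by -0.71 and -0.76.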

How the data were processed

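Each array's summarized probe intensity and its detection p-value were deposited by the authors in a table that the series labels call non-normalized; per the file headers it holds 2 arrays per group. Which array model and scanner software were used is not given in the sources used here. Besides this, the authors deposited 1 mean intensity per sample, used as an alternative. Arrays were joined to groups through column names and sample titles.

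From the intensities, limma 3.58.1 in R 4.3.3 corrected background from the detection p-values (neqc, offset 16), quantile normalized and took log2. Probes with a detection p under 0.05 on at least 2 arrays were kept (14050 of 25697), old symbols were updated through RefSeq, and the brightest probe stood for a gene (10222 genes). Linear models with moderated tests (lmFit, eBayes) used all 6 arrays, with Benjamini-Hochberg adjustment over all genes. The number of arrays limits precision. The procedure was tested on simulated data.

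Members, gene lists, tests and alternatives were chosen with earlier results of these data known. Genes were named by size of change (10 each way among those past the threshold), by passing 2-fold, by disagreeing probes and by level, with up to 4 per list; other names were chosen after their values were seen. The promoter strings and neighbour pairs were also chosen after the results were seen. Arrays were not paired by number in the main fit. Deviations of same-numbered arrays correlated at 0.10, 0.00 and 0.03, which with 2 arrays per group cannot show whether they shared a culture or batch. Alternatives covered background, offset, scaling, filter, probe choice, minimum fold, samples in the fit and leaving out arrays.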

Additional observations from a re-analysis of the deposited data

Results flagged for a closer look

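No mitochondrial ribosomal protein gene differed between Nodal and Activin by the direct test. Of the genes in the marker and comparison lists, 14 did, with the log2 difference of Nodal minus Activin given here (limma, adjusted p under 0.05). Among all genes tested, 1.48% were higher and 1.34% lower in Nodal. Of visceral endoderm markers, 7 were higher in Nodal: Ttr by 3.08, Apoa1 by 2.25, Soat2 by 1.82, Dab2 by 1.45, Amn by 1.33, Hnf4a by 1.16 and Sox7 by 1.01. Of 10 pluripotency markers, 4 were higher in Nodal: Dppa5a by 1.17, Pou5f1 by 0.62, Tdh by 0.48 and Esrrb by 0.40. Tdh was undetected on both Activin arrays, with mean log2 levels of 5.44 with Nodal and 4.96 with Activin. Esrrb was also dim, at 5.98 and 5.58. Lower in Nodal were the endoderm marker Mixl1 with -0.78, the macrophage marker Cd68 with -0.69 and the proteasome gene Psmb10 with -0.68. Cd68 was dim in both groups, with mean log2 levels of 5.20 with Nodal and 5.89 with Activin.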

How the results depend on the processing

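The counts of lower and higher members kept within 1.5 times of those reported under the alternatives run, with these exceptions, whose cause was not tested beyond the setting itself. With an offset of 50, 7 members were higher after Activin and 1 was lower in Nodal against Activin. Tested against a minimum fold of 1.5, 9 members were lower and 0 higher after Activin, and 11 lower and 0 higher after Nodal. Leaving out arrays gave 35 to 42 lower after Activin and 37 to 45 lower after Nodal. The median log2 change after Activin was -0.32 with median scaling and -0.36 with no filter, and leaving out arrays gave -0.42 to -0.33. After Nodal it was -0.32 with median scaling, -0.43 with every probe and -0.44 with probes averaged within a gene, and -0.45 to -0.39 with arrays left out. Median scaling set the median of all genes at 0.08 in both comparisons, and 8 (Activin) and 7 (Nodal) of the lower calls were lost. Among named genes, Mrps25, Activin against undifferentiated, was 0.0602 with probes averaged, and Mrps33, Nodal against undifferentiated, was 0.0224 with probes averaged, 0.0720 without Nodal array 2, 0.0160 without undifferentiated array 2 and between -0.107 and 0.0720 over all arrays left out. None of these passed. The calls of Mrps10 and Mrps25 were lost under several settings, median scaling among them. With the array number as a replicate block, 42 members were lower and 4 higher after Activin and 45 lower and 6 higher after Nodal. Slide as a block was not run, because the column names give no slides. Where an array was left out, the lone array was assumed to vary like the other groups.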
